A study of Sus scrofa with 20 samples.

Results

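Of the 801159 distinct transcript tags counted in longissimus muscle, 250 rose without a break through 49, 63, 77 and 91 days post coitus (dpc) in both pig breeds studied, Landrace (LR) and Lantang (LT). Levels were given as TPM, the copies of a tag per 1000000 clean tags of its library, with an absent tag at 0. The tags were chosen by their TPM at these 4 stages. A tag was included when it rose at each of the 3 steps in LR and in LT, reached at least 10 TPM at 91 dpc in both, and rose at least 2-fold from 49 to 91 dpc in both after 1 TPM was added to each value. At 91 dpc, 8547 tags reached 10 TPM in both breeds, 338 of these rose at every step, and 250 also met the 2-fold limit. The levels from 49 to 91 dpc chose these tags and are given below as a description only. The libraries of 35 dpc and of 2, 28, 90, 120 and 180 days after birth (dpn) had no part in the choice.

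LR is a lean pig breed and LT an obese breed native to China. Each library was made from the pooled RNA of 3 purebred animals of 1 breed and stage, so that the 20 libraries held no replicate of any breed and stage and no value of single animals. The fetuses were male and came from 2 sows per stage, and the postnatal animals were boars, castrated after 2 weeks of age. Those of 2 dpn were therefore killed before the age of castration. The labels give no other treatment of any group. In digital gene expression (DGE) profiling, cDNA is digested with NlaIII, which recognises CATG, and 17 bases are read beyond the site nearest the 3′ end. Because the tags were not matched to genes here, neither their genes nor the muscle markers of the libraries were examined.

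Skeletal muscle fibres form in successive waves before birth, primary fibres before secondary fibres, and the number of fibres is largely set in fetal life. The fibres then mature, filling with contractile proteins and enzymes of energy metabolism, and exchange fetal protein isoforms for adult isoforms around and after birth. A tag that rises through mid and late gestation can therefore belong to a transcript that stays abundant in adult muscle or to a transcript of fetal muscle alone. In RNA of whole tissue, a change in the cells of a type and a change in the RNA of each cell cannot be told apart.

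The tags were named R1 to R250 by their mean TPM at 91 dpc, and those that the results turn on are shown with the NlaIII site in capitals. The 6 most abundant tags at 91 dpc, and the pair whose levels outside the choosing stages were most like those of R1, were as follows.
R1: CATGaagatcaagatcatcgc
R2: CATGttcgatcagactcagat
R3: CATGcagaaggagatcaccgc
R4: CATGtggaacgagcacctggg
R5: CATGaagtgcgacatcgatat
R6: CATGatccccgcccagaagta
R7: CATGcttttctccactcaaag
R30: CATGgttcttaagatttcctt
Tags with the largest smaller-breed rise from 49 to 91 dpc are shown because they were at 6.05 TPM or less in both breeds at 49 dpc.
R20: CATGgaatattttcaacccat
R45: CATGtgtcacaagatgggact
R60: CATGggcaacgaatactattt
R81: CATGgagaccgtctccaaagc
R88: CATGctgtaccaccgcctcac
A further group is shown for what it did outside the choosing stages, R168 and R213 absent at 35 dpc, R26, R130, R135 and R160 lost after birth, and R132 and R155 higher at 35 than at 91 dpc.
R168: CATGttgcgagagaatcgtag
R213: CATGctgaagggttgcattgc
R26: CATGatcttctacgcctgcct
R130: CATGctgactgaccgtgagaa
R135: CATGggggtcgtgccggaccc
R160: CATGtggtggctcagtattgg
R132: CATGagagttaaaaacacgtt
R155: CATGgagagtgtctaaacaca

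The 250 tags were richer in G and C than the whole set of 8547 tags, which includes them and was not matched to them in abundance. The median GC content of the 17 bases after the site was 47.06%, against 41.18% over the 8547 tags. A further CATG lay within the 17 bases of 9 tags (3.6%, against 3.0%), and AATAAA, the common poly(A) signal, within those of 3 tags (1.2%, against 2.54%). Each search read the tag strand only. A pair of tags overlapped, the last 15 bases of R146 being the first 15 of R84. R146 is printed with both sites in capitals.
R146: CATGgcCATGcagaaaatctt
R84: CATGcagaaaatctttgcccg
Both members of the pair are counted among the 250 although they share sequence, and at 2 dpn they reached 42.7 and 105 TPM in LR and 34.9 and 42.8 TPM in LT. R114 differed by 1 base from a more abundant tag that was not among the 250, and its count is uncertain to that extent.

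Libraries held 2157111 to 5322022 clean tags, and 3 counts, taken as the floor of detection, corresponded to 0.564 to 1.39 TPM. At 10 TPM a library held 22 to 53 counts of a tag, and the 95% Wilson interval of that value ran from 6.74 to 15.4 TPM in the smallest library. Intervals and floors cover counting error only, because PCR can yield several copies of the same molecule. The LR libraries of 120 and 180 dpn stood apart from the rest. Tags with a further CATG made up 0.116% and 0.224% of their counts, against 2.14% to 3.80% in the other 18 libraries. Counts of calls in the tests are therefore given with and without these libraries, and the part of this difference in the results was not tested.

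Within the choosing stages the smaller of the 2 breeds' rises from 49 to 91 dpc had a median of 3.66-fold and ran from 2.01-fold to 71.1-fold. The rise was at least 4-fold in both breeds for 112 tags and at least 10-fold for 20. For 27 tags all 6 steps, 3 in each breed, lay beyond the 95% Wilson intervals of the neighbouring libraries. This count uses the values that chose the tags, so it is a description and not a test. No such share was computed for other tags. Most of the tags were of moderate level. Their mean at 91 dpc had a median of 38.4 TPM, and 151 stayed under 50 TPM, 61 reached 100 TPM and 7 reached 1000 TPM. At the limit itself, the tags just inside were R226 and R242 at 2.01-fold and R151 at 2.02-fold, and the tags just outside rose 1.998-fold, 1.996-fold and 1.978-fold in the breed with the smaller rise. These tags are shown because they mark the limit, the outer 3 without a number.
R226: CATGgggtgattaggataggc
R242: CATGtttcactgtaccccttc
R151: CATGgcgaagcacgagcagat
Outside, 1.998-fold: CATGgggcccgagggtcacac
Outside, 1.996-fold: CATGacagctataggggctga
Outside, 1.978-fold: CATGaggtctgaagaggaggg

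The 250 tags were at a low level at 35 dpc and held a growing share of the libraries long after the choosing stages had ended. In LR their summed share was 0.269% at 35 dpc, 0.790%, 1.59%, 2.79% and 3.81% from 49 to 91 dpc, and 7.78%, 17.0%, 20.6%, 12.7% and 10.6% at the 5 postnatal stages. In LT it was 0.354% at 35 dpc, 0.892%, 1.84%, 2.64% and 3.68% from 49 to 91 dpc, and 7.20%, 11.6%, 18.3%, 20.1% and 18.9% after birth. The share was thus larger in each of the 10 postnatal libraries than at 91 dpc in the same breed, and in LR it was lower at 120 and 180 dpn than at 90 dpn while in LT it was not. The 8 most abundant tags, R1 to R8, made up 2.14% of the LR and 1.46% of the LT library at 91 dpc, 13.0% of the LR library at 90 dpn and 11.8% of the LT library at 120 dpn.

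**Figure D1:**
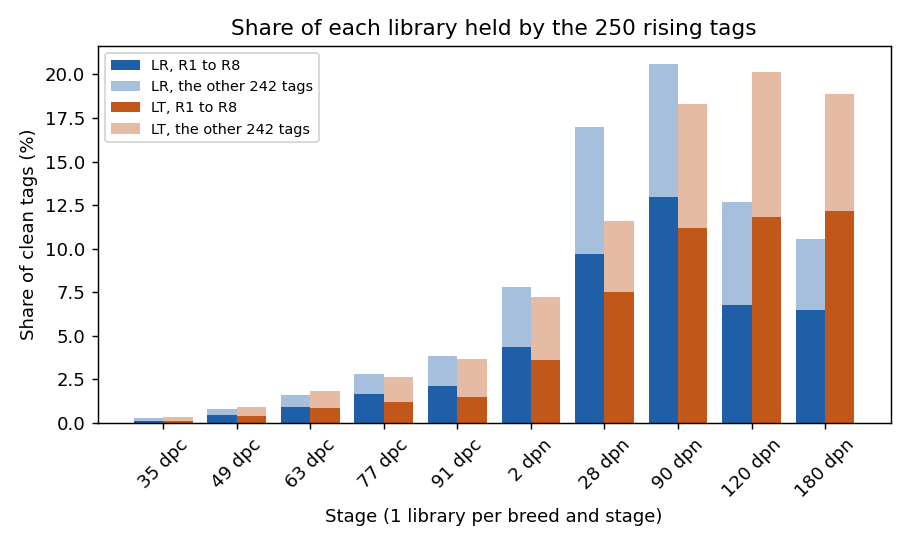
Share of all clean tags, in percent, that the 250 tags held in each library by stage, with R1 to R8 in dark and the other 242 in light colour, LR in blue and LT in orange. The share was 0.269% and 0.354% at 35 dpc, and the highest bars are those of LR 90 dpn (20.6%) and LT 120 dpn (20.1%).

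The typical tag did not follow that sum. The median TPM over the 250 tags in LR was 4.37 at 35 dpc, 33.0 at 91 dpc, and 31.8, 36.3 and 31.5 at 2, 28 and 90 dpn. In LT the median was 5.08 at 35 dpc, 38 at 91 dpc, and 35.1, 35.7, 31.2, 35.3 and 38.5 after birth. The median in LR at 120 and 180 dpn was 4.66 and 3.59 TPM, a level near that of 35 dpc. Over the 8547 tags the LR median was 12.5 TPM at 90 dpn and 4.08 and 3.59 TPM at 120 and 180 dpn, so that it was lower in these libraries too. In the other 8 postnatal libraries the median of the 250 tags stayed close to the 91 dpc level while their quartiles moved apart.

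**Figure D2:**
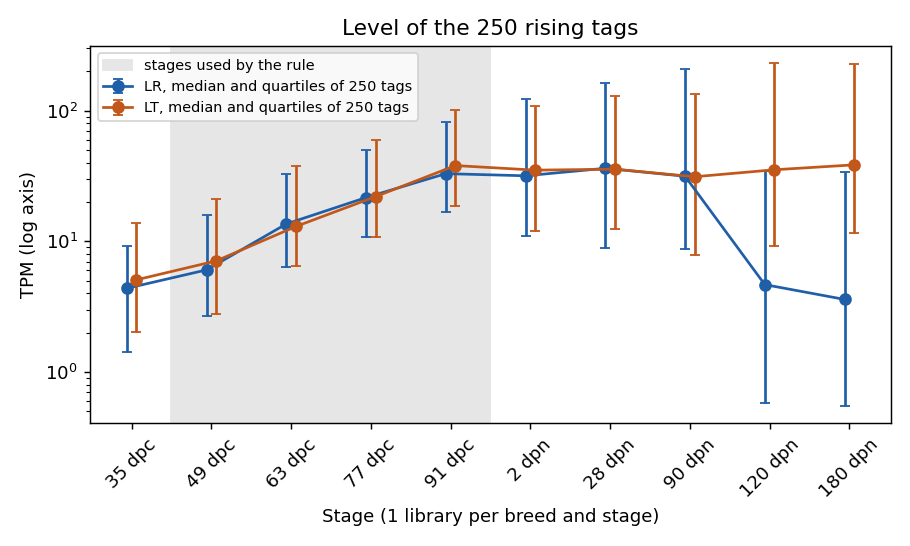
Median and quartiles of the TPM of the 250 tags (log axis) by stage, LR in blue and LT in orange, with 1 library per breed and stage. The shaded stages chose the tags. The median was 33.0 and 38 TPM at 91 dpc and stayed near that level after birth, except in LR at 120 and 180 dpn (4.66 and 3.59 TPM).

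At 35 dpc, a stage the choice did not use, 124 of the 250 tags (49.6%) were below their 49 dpc level in both breeds, as were 21.7% of the 8547 tags. The reverse held for 30 tags (12.0%, against 26.1%). A level at least 2-fold lower at 35 than at 49 dpc in both breeds, with 1 TPM added, was found for 53 tags (21.2%), against 5.36% of the 8547 tags, and a level at least 2-fold higher for 11 (4.4%), against 1.87%. With 5 TPM added the counts were 26 and 5. The level at 49 dpc is among the values that chose the tags, so these counts are a description. For 18 tags (7.2%, against 0.55%) both 35 dpc libraries held fewer than 3 counts.

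R20, R45 and R81 were the most abundant at 91 dpc of those 18 tags. R20 was at 0 TPM in both breeds at 35 dpc and at 500 TPM in LR and 178 TPM in LT at 91 dpc. R81 was at 0 TPM in both breeds at 35 dpc, at 1.62 TPM in LR and 6.84 TPM in LT at 77 dpc, and at 42.7 and 84.6 TPM at 91 dpc, so that most of its fetal rise fell between the last 2 stages. R45 was at 0 TPM in LR and 0.677 TPM in LT at 35 dpc, and at 180 and 78.4 TPM at 91 dpc.

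Only R132 and R155 were higher at 35 than at 91 dpc in both breeds (0.8% of the 250, against 29.5% of the 8547 tags). The choice asked for a rise up to 91 dpc, so this share was partly set by it and is a description. In LR, R132 was at 52.2 TPM at 35 dpc, 8.51 TPM at 49 dpc and 48.7 TPM at 91 dpc. In LT it was at 43.3, 5.51 and 19.7 TPM at these stages. R155 was at 46.5, 11.4 and 25.9 TPM in LR and at 48.7, 11.8 and 31.2 TPM in LT. Both tags therefore had a dip at 49 dpc before the rise. For R132 the LR values of 35 and 91 dpc, 52.2 and 48.7 TPM, lay within counting error. After birth R132 ranged from 2.21 to 15.9 TPM and R155 from 0 to 11.9 TPM over the 10 libraries, below 35 dpc in all of them.

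Across birth the 250 tags split. Of these, 36 (14.4%) were at least 2-fold higher at 2 dpn than at 91 dpc in both breeds, against 4.17% of the 8547 tags, and 40 (16%) were at least 2-fold lower in both, against 16.5%. The lower count was near the background and the higher count above it. Against the mean of the 5 postnatal libraries of a breed, 65 tags (26%, against 4.94%) were at least 2-fold above 91 dpc in both breeds and 50 (20.0%, against 29.6%) at least 2-fold below, and without the LR libraries of 120 and 180 dpn the numbers were 64 and 40. All these counts compare single libraries and rest partly on the 91 dpc values that chose the tags.

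The rise over the choosing stages extended to both sides in a small group. Levels increased at every stage from 35 dpc to 2 dpn in both breeds for 35 tags, and through 28 dpn for 18. A tag can do so only if it rises from 49 to 91 dpc, as the choice required, and among the 338 tags with such a rise the counts were 40 and 20. All 5 postnatal libraries of each breed were above the 91 dpc library for 16 tags (6.4%, against 2.14%) and below it for 60 (24.0%, against 33.5%). In LT alone all 5 were above for 60 tags (24.0%, against 8.42%). These counts rest partly on the 91 dpc values that chose the tags. The stage of the highest level was 91 dpc for 84 tags in LR and 77 in LT, 90 dpn for 55 in LR and 120 dpn for 55 in LT. Over the 8547 tags these stages held 10.8%, 10.8%, 4.75% and 3.92% of the highest levels, but the choice leaves no highest level at 49, 63 or 77 dpc to the 250, so the shares are not comparable.

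R1 was the most abundant of the 250 tags at 91 dpc and became still more abundant. In LR it was at 112 TPM at 35 dpc, 6343 TPM at 91 dpc, and 9219, 19792, 29304, 33643 and 24023 TPM at the postnatal stages. In LT it was at 211 TPM at 35 dpc, 1677 TPM at 91 dpc, and 11330, 25310, 18291, 21925 and 22115 TPM after birth. Every postnatal library was above every library of 35 and 91 dpc. R7 and R30 were the tags with the levels most like R1 over the 12 libraries outside the choosing stages (Pearson's r of log2(TPM + 1) of 0.98 for both, a description over libraries that share stages). R7 was at 13.9 TPM in LR and 40.3 TPM in LT at 35 dpc and between 2110 and 40404 TPM after birth. R30 was at 13.5 and 10.8 TPM at 35 dpc and between 797 and 1841 TPM after birth, with no overlap in either tag.

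**Figure D3:**
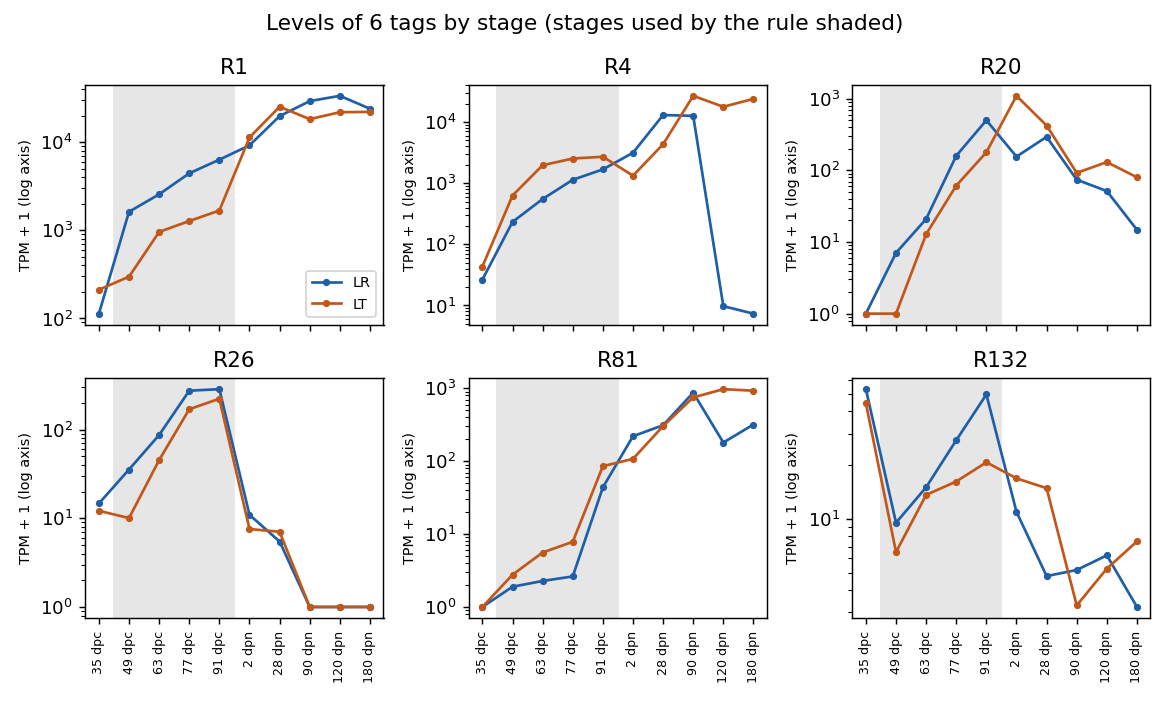
TPM + 1 (log axis) of 6 tags by stage, LR in blue and LT in orange, with the choosing stages shaded. R1 and R81 stayed high after birth, R4 was at 8.75 and 6.36 TPM in LR at 120 and 180 dpn, R20 was absent at 35 dpc, R26 was at 0 TPM from 90 dpn on, and R132 started high at 35 dpc.

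The mean of the 5 postnatal stages was set against 35 dpc with edgeR's quasi-likelihood test in the 12 libraries that had no part in the choice, with terms for stage and breed. The libraries of both breeds stood in as replicates of a stage, so the p-values measure the spread left after stage and breed, which was wide (common dispersion 0.811). Of the 250 tags 243 passed the filter on low counts, which retained 57947 tags in all. Higher levels after birth passed an adjusted p of 0.05 for 97 tags (3.4% of all tags tested were called higher), and lower levels for 1, R26 (7.84% of all tags tested were called lower). The median log2 fold change was 4.02 over the 243 tags and -0.44 over all tags tested. The filter asked for about 2.98 TPM in at least 2 libraries. Of the 243, 144 met it in the 35 dpc libraries and 99 needed postnatal libraries to pass, which favours a postnatal excess. The 97 calls comprised 41 of the 144 and 56 of the 99. Calls of the other fits were not split in this way, and all tags tested were not matched to the 250 in abundance. Among the 97, log2 fold changes ran from 3.29 to 13.73, and 91 were above the 35 dpc library of their breed in all 10 postnatal libraries. Over the whole 250, 110 tags (44.0%, against 8.07% of the 8547 tags) had such an order. Without the LR libraries of 120 and 180 dpn, 191 tags were called higher and 5 lower, with 12.9% of all tags called higher and 15.4% lower. When either 35 dpc library was left out, no tag was called in either direction (0 and 0), and without the LR or LT library of 90 dpn 30 and 45 of the 250 were called higher, with 0.713% and 0.996% of all tags.

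R81, R20, R168 and R213 had the largest called rises, and all 4 were at 0 counts in both 35 dpc libraries. They passed the filter only through the postnatal libraries where they were high, so no p is given for them. R81 was at 219, 311, 872, 179 and 318 TPM in LR and 107, 303, 749, 973 and 927 TPM in LT after birth. Its postnatal mean was at least 1188-fold higher than the floor of 3 counts over both 35 dpc libraries. R20 was at 155, 293, 73.2, 50.4 and 13.8 TPM in LR and 1099, 422, 91.3, 130 and 79.1 TPM in LT, at least 577-fold higher by the same measure. Both tags were thus far above 35 dpc in all 10 libraries, but R20 had its highest level at 91 dpc in LR and at 2 dpn in LT, and R81 at 90 dpn in LR and 120 dpn in LT.

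R168 and R213 were less even. R168 was at 65.1, 165, 208, 0 and 2.76 TPM in LR and 29.2, 62.8, 123, 204 and 182 TPM in LT. R213 was at 79.3, 225, 85.8, 2.04 and 7.19 TPM in LR and 39.2, 119, 84.7, 126 and 133 TPM in LT. Over the floor their postnatal means were at least 250-fold and at least 216-fold higher. In both tags the low postnatal values were the LR libraries of 120 and 180 dpn. R45, with 2 counts over both 35 dpc libraries, was 344-fold higher after birth (95% exact Poisson interval of the 35 dpc count 95.3 to 2841-fold), although it too was at 0 TPM in those LR libraries.

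Of the 6 most abundant tags, R1, R3 and R6 passed the test and R2, R4 and R5 did not. The test itself gives no SE. Each SE printed here is the absolute log2 fold change divided by the square root of the test's F statistic, an approximation. The log2 fold change of R1 was 7.88 (SE 1.70, edgeR's adjusted p = 0.0156), that of R3 was 9.14 (SE 2.49, adjusted p = 0.0357 with edgeR) and that of R6 was 8.52 (SE 2.46, adjusted p = 0.0423 with edgeR). R2 had 3.29 (SE 1.61), R4 8.67 (SE 3.11) and R5 7.31 (SE 2.42), with adjusted p at 0.181, 0.0775 and 0.0612 in edgeR. Without the LR libraries of 120 and 180 dpn the adjusted p of R2, R4 and R5 was 0.00411, 0.000269 and 0.000318. Among the steepest fetal rises, R60 was called (log2 fold change 9.39, SE 2.04) and R88 was not (5.33). Both needed postnatal libraries to pass the filter, so no p is given for them. R60 rose from 1.89 TPM in LR and 5.41 TPM in LT at 35 dpc to 2996 and 2957 TPM at 90 dpn. With 1 library left out at a time, the calls of R1, R7 and R30 were lost only without either 35 dpc library. That of R26 was lost also without LR or LT at 90 dpn. The calls of R3 and R6 were lost in addition without LR or LT at 90 dpn or 28 dpn, and that of R6 without LR or LT at 2 dpn. R20, R45, R60, R81, R168 and R213 needed postnatal libraries to pass the filter, so their calls are not ranked in this way. Those of R45, R60, R168 and R213 were lost without further libraries too.

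R26 was the single tag called lower after birth, and it was low or absent at all 5 postnatal stages. In LR it was at 13.7 TPM at 35 dpc, 34.5, 86.1, 274 and 285 TPM from 49 to 91 dpc, 9.95 TPM at 2 dpn, 4.47 TPM at 28 dpn and 0 TPM at 90, 120 and 180 dpn. In LT it was at 11.2 TPM, then 9.05, 44.3, 169 and 222 TPM, then 6.57 and 6.05 TPM, and 0 TPM at the same late stages. All 10 postnatal TPM values were below both 35 dpc values, but the nearest, 9.95 against 11.2 TPM, lay within counting error. The order did not hold after TMM scaling, with factors of 1.49 for LT at 35 dpc, 1.01 for LR at 2 dpn and 0.696 for LT at 28 dpn. In edgeR the log2 fold change was -4.70 (SE 1.01, adjusted p = 0.0206), and -2.64 without 120 and 180 dpn (edgeR's adjusted p = 0.0276). The 0 values do not depend on the LR libraries that stood apart, since R26 was at 0 TPM also in LR at 90 dpn and in LT at 90, 120 and 180 dpn. Each such 0 allows a level up to the floor of its library, 1.39 TPM at most.

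A further 8 tags were close to absent after birth in the sense that at least 8 of the 10 postnatal libraries held fewer than 3 counts (3.2%, against 0.632% of the 8547 tags). The 3 most abundant were R130, R135 and R160. R130 was at 18.5 TPM in LR and 50.7 TPM in LT at 91 dpc and at most 0.906 TPM after birth. R135 was at 45.6 and 20.5 TPM at 91 dpc and also at most 0.906 TPM after birth. R160 was at 29.4 and 25.2 TPM at 91 dpc, 6.42 and 9.74 TPM at 2 dpn, and at or under 0.688 TPM later. R130 and R135 did not pass the filter on low counts and were not tested, and R160 had an adjusted p of 0.195 in edgeR with a log2 fold change of -2.47. The loss between 91 dpc and 28 dpn was seen in both breeds for each of these tags.

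R9 and R240, chosen after their values were seen, had the lowest ratio of 2 dpn to 91 dpc in LT and the highest ratio in both breeds. R9 was at 270 TPM in LR and 1641 TPM in LT at 91 dpc, 65.1 and 46.7 TPM at 2 dpn, and 1.72 and 0.585 TPM at 28 dpn. R240 was at 13.3 TPM in LR and 11.5 TPM in LT at 91 dpc and at 444 and 1067 TPM at 2 dpn. From there R240 was at 52.9, 210, 3408 and 1422 TPM in LR and 186, 39.2, 163 and 169 TPM in LT, above 91 dpc in every library. They are shown because they bound that range.
R9: CATGaagagggaaagatcctg
R240: CATGcgggagtgtgagcaagc

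For a subset the breeds went opposite ways across birth. From 91 dpc to 2 dpn, 9 tags were at least 2-fold up in LR and at least 2-fold down in LT (3.6%, against 1.26% of the 8547 tags), and 7 were at least 2-fold up in LT and down in LR (2.8%, against 2.68%). The second share was that of the background. The first set held R11, R15, R16, R22, R84, R89, R118, R169 and R188, and the second R20, R45, R87, R116, R131, R150 and R161, listed for this pattern after their values were seen. R11 went from 210 to 771 TPM in LR and from 1117 to 349 TPM in LT. R15 went from 215 to 625 TPM in LR and from 638 to 148 TPM in LT, and R16 from 183 to 528 TPM and from 543 to 189 TPM. All 3 were at 3983 to 5182 TPM in LT at 90 dpn, above their LT levels at 91 dpc and 2 dpn. In the second set R20 went from 500 to 155 TPM in LR and from 178 to 1099 TPM in LT, R45 from 180 to 79.9 TPM and from 78.4 to 388 TPM, and R131 from 30.9 to 0 TPM and from 38.3 to 143 TPM. Each direction rests on 1 library per breed and stage and was not tested. The sequences of the most abundant tags of the first set are shown for comparison with R20 and R45 above.
R11: CATGtccttcagtgctgacca
R15: CATGaaggaggttttccgccg
R16: CATGgcccgagactggcccga
R22: CATGaccgtgggctgtgtggc

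**Figure D4:**
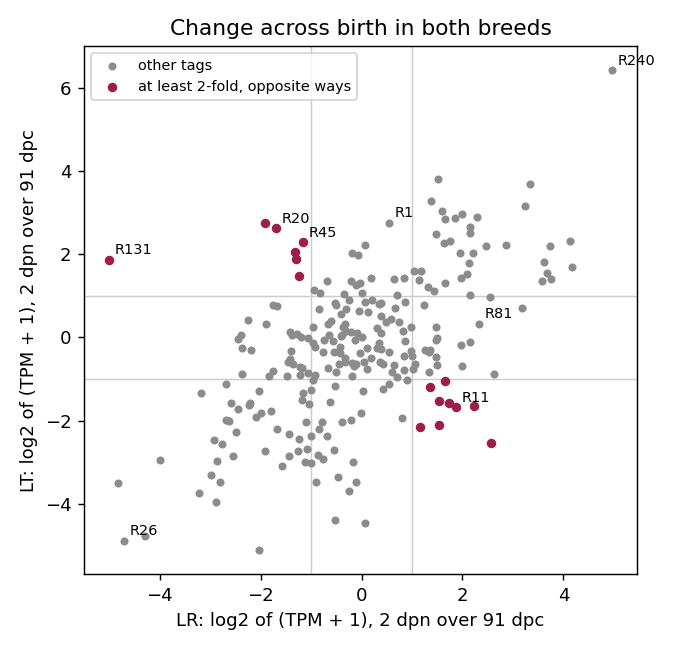
Log2 ratio of (TPM + 1) at 2 dpn over 91 dpc in LR (x axis) and LT (y axis) for each of the 250 tags, with thin lines at a 2-fold change. The 9 and 7 tags that moved at least 2-fold in opposite directions are in red, R26 was lower in both breeds (-4.71 and -4.88), and R240 has the largest value in both (4.96 and 6.42).

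At 91 dpc, LT was at least 2-fold above LR for 58 tags (23.2%, against 10.9% of the 8547 tags) and LR above LT for 24 (9.6%, against 15.2%). At 2 dpn each breed was at least 2-fold above the other for 30 tags (12.0%, against 19.8% of the 8547 tags for LT above LR and 9.15% for LR above LT). For 17 tags (6.8%, against 1.99%) a 2-fold excess in LT at 91 dpc was followed by a 2-fold excess in LR at 2 dpn, and for 5 (2.0%, against 4.49%) the order was opposite. Over the 6 stages that had no part in the choice, with stage as a block, none of the 250 tags was called between the breeds by edgeR (0 higher and 0 lower in LT, with 0.538% and 0.409% of all tags called), 16 of 243 had an unadjusted p under 0.05 against 3440 of all 57947, the smallest adjusted p was 0.391, and DESeq2 called 0 and 0. The breed value was above 0, LT over LR, for 203 of the 243 tags tested, with a median log2 of 0.94 against 0.50 over all tags. Without the LR libraries of 120 and 180 dpn the medians were 0.01 and 0.02, and 1 tag was called lower in LT.

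The mean of the late stages 90, 120 and 180 dpn was also set against 2 dpn in the same 12 libraries. Animals of 2 dpn were killed before the age of castration, so age and castration cannot be told apart in this comparison. No tag of the 250 and none of all tags tested was called by edgeR (0.0% in each direction). In edgeR 31 of the 243 tags tested and 5583 of all had an unadjusted p under 0.05. The smallest adjusted p in edgeR among the 243 was 0.249. DESeq2 called 14 of the 250 higher and 4 lower, with 2.5% and 0.863% called of the 28737 tags to which it gave an adjusted p. Without the LR libraries of 120 and 180 dpn edgeR called 12 higher and 5 lower, with 0.894% and 0.608% of all tags called. Of the 243 tags 122 had a log2 value above 0 and 121 below, with a median log2 of 0.003 against -0.71 over all tags tested.

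Between 90 dpn and the mean of 120 and 180 dpn the breeds differed widely in the level of these tags. With 1 TPM added, the LR mean was at most 0.1 of the 90 dpn level for 84 tags (33.6%, against 17.5% of the 8547 tags), and in LT for 0 tags (against 0.105%). The LR mean was at or above the 90 dpn level for 57 tags (22.8%, against 34.3%), and the LT mean for 175 (70.0%, against 64.0%). R4 was at 12615 TPM in LR at 90 dpn and at 8.75 and 6.36 TPM at 120 and 180 dpn, while in LT it was at 26814, 17760 and 23905 TPM. R3 was at 21368, 145 and 181 TPM in LR and at 13047, 16718 and 16887 TPM in LT. R5 was at 22162, 86.0 and 59.7 TPM in LR and at 12970, 17575 and 16091 TPM in LT. These tags were thus nearly lost in the LR libraries of 120 and 180 dpn, which stood apart from the rest, and near their highest level in LT at the same ages.

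Other abundant tags went the opposite way in the same LR libraries. R7 was at 15667 TPM in LR at 90 dpn and at 33086 and 40404 TPM at 120 and 180 dpn, and in LT at 13749, 15582 and 15255 TPM. R12 and R28, chosen after their values were seen, were at 7468 and 1679 TPM in LR at 90 dpn and at 27943 and 10900 TPM at 120 dpn. R1 was at 29304, 33643 and 24023 TPM in LR. The 84 tags at or under 0.1 in LR had a median GC content of 52.94%, against 47.06% for the 57 at or above 90 dpn and 47.06% for the 109 between. The part of the LR libraries that stood apart in this difference was not tested, and with 1 library per stage it cannot be told apart from a change of breed and age.

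**Figure D5:**
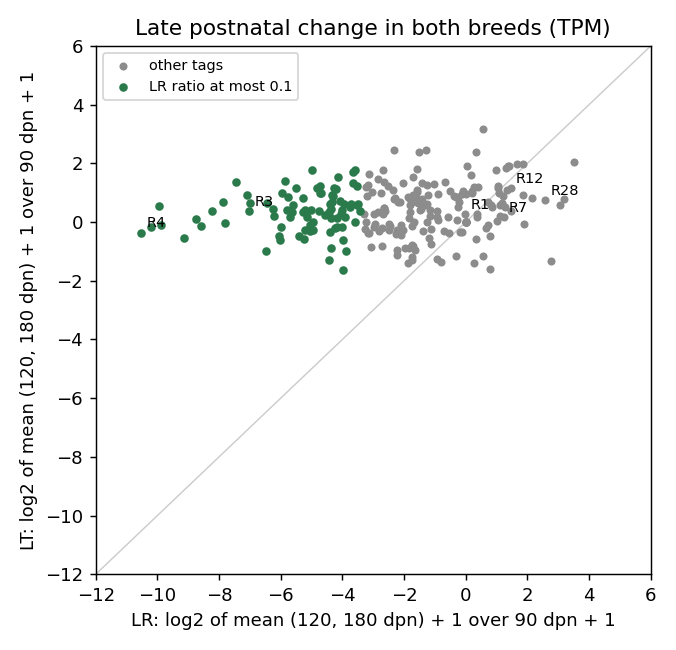
Log2 ratio of the mean of 120 and 180 dpn, plus 1 TPM, over the 90 dpn level plus 1 TPM, in LR (x axis) and LT (y axis) for each of the 250 tags, with the line of equal change. The 84 tags at or under 0.1 of the 90 dpn level in LR are in green, and none of the 250 tags (0) is that low in LT.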

How the data were processed

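Longissimus RNA of LR and LT pigs was profiled at 10 stages, 1 library of 3 pooled animals per breed and stage. The authors digested cDNA with NlaIII, read CATG and 17 bases, and removed adaptor, empty, low-quality and one-copy tags. The authors deposited per library a raw count for every distinct clean tag, together with TPM, that count per 1000000 clean tags. TPM was recomputed here from the counts. No reference transcripts were at hand, so tags were not matched to genes and the gene and marker lists planned were not used.

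Tags were chosen by the rule in the report, and the members and lists were chosen with earlier results of these data known. Tests used edgeR's quasi-likelihood test (TMM, filterByExpr, stage and breed as terms, Benjamini-Hochberg over all tested tags), with 5 residual degrees of freedom. The fit was also run on simulated counts of lower dispersion than these data, so that run does not show how the fit performs here. Replicates of a breed and stage do not exist, so p-values measure spread between breeds after both terms. Named tags were the 6 most abundant, the 6 with the largest rise, those at the 2-fold limit, up to 4 per direction with the largest called fold change, up to 3 each absent at 35 dpc, absent after birth or higher at 35 than 91 dpc, and the pair most like R1. One tag that this rule names is not reported here. Others are marked as chosen later. Alternatives were DESeq2, other scalings, filters, pseudocounts, limits, library sets and merging of tags 1 base apart. Omission of the LR libraries of 120 and 180 dpn alone was chosen after seeing the data. Fits ran in R 4.3.3 with edgeR 4.0.16 and DESeq2 1.42.0. Other steps ran in Python 3.11.15 with pandas 2.3.3 and numpy 2.4.6, intervals with scipy 1.17.1 and plots with matplotlib 3.10.9.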

Additional observations from a re-analysis of the deposited data

Results flagged for a closer look

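R148 moved in opposite directions in the breeds between 35 dpc and the postnatal stages, with every postnatal library below 35 dpc in LR and above it in LT. The log2 of the postnatal mean over 35 dpc, with 1 TPM added, was -1.40 in LR and 1.49 in LT. R148 was at 9.21 TPM in LR and 6.77 TPM in LT at 35 dpc, and after birth between 0 and 7.56 TPM in LR and between 7.34 and 49.4 TPM in LT. R230 did the same against 91 dpc, with a log2 of -0.88 in LR and 1.43 in LT. It was at 16.9 TPM in LR and 10.5 TPM in LT at 91 dpc, and after birth between 0 and 16.7 TPM in LR and between 12.4 and 59.0 TPM in LT. Both differences rest on 1 library per breed and stage and were not tested. The lowest LR values of both tags were those of 120 and 180 dpn. The nearest values lay within counting error. For R230 these were 16.9 against 16.7 TPM in LR and 10.5 against 12.4 TPM in LT. For R148 they were 9.21 against 7.56 TPM in LR and 6.77 against 7.34 TPM in LT. How often background tags have such an order was not counted.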

How the results depend on the processing

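Each breed and stage has 1 library, so no replicate number pairs samples. The breed comparison paired the LR and LT libraries by stage, with stage as a block (0 calls with it and without it). Other limits of the choice gave 147 tags (20 TPM), 112 (4-fold) and 166 (each step at least 1.1-fold), or 358 (5 TPM), 315 (1.5-fold) and 260 (merged tags), and TMM-scaled TPM gave 181, of which 170 were among the 250. Calls higher after birth than at 35 dpc, 97 of the 250, became 158 with all 20 libraries, 193 without 120 and 180 dpn, 191 without only the LR libraries of those stages and 151 with DESeq2. Calls lower, 1, became 5 with scaling by total clean tags, 4 with RLE size factors, 2 without the filter, without the breed term or with merged tags, 11 with all 20 libraries, 5 without 120 and 180 dpn or without only those LR libraries, and 4 with DESeq2. Leaving out 1 library at a time gave 0 to 141 higher and 0 to 6 lower. The count was 0 without LR or LT at 35 dpc, 59 and 57 without LR and LT at 28 dpn, and 30 and 45 without LR and LT at 90 dpn, and a lone library of a stage was then assumed to vary like the others. Over all tags the calls were 1972 higher and 4544 lower, 1914 and 13008 after scaling by library totals, 1931 and 7547 with RLE size factors, and 4521 and 4428 with DESeq2. Calls higher went from 3.4% of all tags to 6.08% with all 20 libraries and 13.8% without 120 and 180 dpn. Calls lower went from 7.84% to 22.4% with scaling by total clean tags, 13.0% with RLE size factors and 5.1% without the filter. The lower share was 10.9% without the breed term, 9.67% with merged tags, 21.7% with all 20 libraries and 13.3% without 120 and 180 dpn. DESeq2 called 9.45% higher and 9.26% lower of the 47836 tags to which it gave an adjusted p. The median log2 of all tags went from -0.44 to -1.30 and -0.81 under the 2 scalings, while that of the members went from 4.02 to 3.16 and 3.64. For late stages against 2 dpn, 0 calls higher became 12 without the LR libraries and 14 with DESeq2, and 0 lower became 4 without the filter, 4 with all 20 libraries, 2 without 120 and 180 dpn, 5 without the LR libraries and 4 with DESeq2, and 0 to 2 when 1 library was left out. For LT against LR, 0 calls became 1 higher without the filter and with all 20 libraries, and 1 lower without 120 and 180 dpn and without the LR libraries. With 5 TPM added, the tags at least 2-fold higher or lower at 35 than at 49 dpc numbered 5 and 26. R226 (postnatal against 35 dpc) changed sign to -0.14 with scaling by total clean tags and to -0.50 without LT at 120 dpn (-0.50 to 1.25 when 1 library was left out), never past the threshold. For late stages against 2 dpn, 0.141% of all tags were called lower without the filter, 0.281% with all 20 libraries and 0.022% without 120 and 180 dpn. For LT against LR, 0.605% of all tags were called higher without the filter and 2.93% with all 20 libraries. Without 120 and 180 dpn, 0.852% were called lower in LT. The cause of these changes was not tested. Of the values of single named tags outside the omission of 1 library, 158 kept direction and side of the threshold, 43 passed it in addition and 3 (R3, R6 and R45, without the breed term) no longer did.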
